A study of Mus musculus with 6 samples.

Results

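Mab21l1 and Mab21l2 are paralogous single-exon genes, and the deposited methylation tables list both with large differences of opposite direction. The windows described here are those whose nearest start site, as the authors assigned it, belongs to either gene. They number 10 of the 2135 windows listed in any of the 3 comparisons, 6 near Mab21l1 and 4 near Mab21l2. The 2 genes were chosen by their listed methylation differences, which run in opposite directions in all comparisons that list both, so differences and directions are given as a description with no test.

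Methylation was read by reduced representation bisulfite sequencing (RRBS), which cuts DNA with MspI at CCGG and so samples CpG-rich sequence most densely. All 6 libraries came from C57BL6 mouse bone marrow cells immortalised with HoxA9, transplanted into irradiated recipients and sorted for GFP from bone marrow after 4 weeks. The 2 IDH1wt libraries carried the pSF91 vector with wild-type IDH1 and EGFP. The 2 IDH1mut libraries carried the same vector type with mutant IDH1, named R132C in the comparison tables, and GFP. The 2 R-2HG libraries carried an empty vector, and the mice received R-2HG, the metabolite made by mutant IDH1, at 1 mg per day for 4 weeks. Nothing in the labels tells how many mice stand behind a library or whether libraries of 1 group had different donors. Every comparison with R-2HG differs in the transgene as well as in the treatment, and these cannot be told apart.

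The Mab21 family takes its name from the Caenorhabditis elegans gene mab-21, which acts in the patterning of the male tail. In mice, Mab21l1 is needed for the lens and the preputial glands, and Mab21l2 for the retina and the ventral body wall. Both encode proteins of the nucleotidyltransferase fold that includes the DNA sensor cGAS. Neither gene is a classical gene of blood formation. Methylation of CpG-rich sequence at and just inside developmental genes of this kind is often gained in transformed cells, and TET enzymes, which R-2HG inhibits, remove such marks.

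Both genes lie on mouse chromosome 3, each inside a larger host gene. In the RefSeq annotation (GRCm38.p6) Mab21l1 lies within Nbea and Mab21l2 within Lrba, a pair of related genes that encode BEACH-domain proteins of membrane traffic. The next protein-coding gene beyond Nbea is Dclk1 and beyond Lrba is Dclk2, which encode doublecortin-like kinases, with 0 protein-coding genes between in both cases. Mab21l2 also lies within the annotated noncoding RNA gene Gm31677, and no such gene spans Mab21l1. In mm9, the build of the deposited tables, the windows near Mab21l1 (NM_010750, plus strand) spanned chr3:55584001-55587750 and those near Mab21l2 (NM_011839, minus strand) chr3:86350751-86352000.

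All 4 Mab21l2 windows began downstream of the start site and together covered 206 to 1455 bp from it. Of the 6 Mab21l1 windows, 4 covered 71 to 1320 bp downstream and 2 covered 1682 to 2431 bp upstream, with 1750 bp between the pairs in which no window was listed. The annotated gene lengths are 2778 bp for Mab21l1 and 2234 bp for Mab21l2 in GRCm38.p6, so the downstream windows fall short of the far end of either gene by that annotation. Whether coding sequence or a UTR was covered was not read here, since no mm9 annotation was used. Windows are 500 bp long and neighbours share 250 bp, so the downstream windows of each gene amount to 2 that do not overlap.

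The sequence just before the Mab21l2 start site is shown because the listed windows stop short of it. RefSeq gives these 250 bases at chr3:86548284-86548533 (GRCm38.p6, minus strand), with each CpG in capitals.
Mab21l2 upstream: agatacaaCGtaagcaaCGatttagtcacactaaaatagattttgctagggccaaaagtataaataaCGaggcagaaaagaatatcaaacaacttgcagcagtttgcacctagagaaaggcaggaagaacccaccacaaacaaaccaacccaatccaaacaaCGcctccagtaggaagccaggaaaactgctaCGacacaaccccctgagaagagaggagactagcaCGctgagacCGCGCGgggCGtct
The stretch holds 10 CpGs, against a median of 6 over the same 250 bases of 32851 RefSeq promoters. They are packed most densely in the last bases before the start site. Its observed-to-expected CpG ratio is 0.735, with a median of 0.373 over all promoters, and its GC content is 46.8%, with a median of 52.4%. The MspI recognition letters CCGG, which read the same on both strands, do not occur in these bases. They are absent from 52.9% of the promoters in the table and present in 47.1%. A promoter entry was found for 1 of the 2 genes, and the sequence under the listed windows was not read here.

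The sign of each difference needs a convention, because the deposited tables do not state it. Positive values here mean more methylation in IDH1mut than IDH1wt, in R-2HG than IDH1wt, or in R-2HG than IDH1mut. The table of IDH1wt and R-2HG was turned so that all 3 add up. The data fix the signs only relative to each other, and under the opposite reading every higher becomes lower, at both genes. Each value is a difference the authors computed between groups of 2 libraries. These values carry no replicate error, and their depth is unknown.

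Mab21l2 was more methylated in IDH1mut than in IDH1wt in 4 of 4 listed windows, where 69.3% of the 1493 windows listed in that comparison were higher. Moving from the start site into the gene, the authors' deposited table gives 69.6 points at 206 bp, 66.9 at 456 bp, 61.2 at 706 bp and 60.8 at 956 bp. The difference was thus largest next to the start site and 8.35 points smaller in the window at 706 bp, which shares no base with the first. These windows ranked 1, 3, 7 and 8 by size among the 1035 windows that were higher, whose median was 30.6 points. The authors' deposited table gives a p-value and a q-value of 0 for all 4 of them, and a p-value of 0 for 70.9% of all windows listed in this comparison.

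R-2HG cells were also above IDH1wt at Mab21l2, but by less. The window at 206 bp was listed, with 36.7 points once the sign of the authors' deposited table is turned, and it ranked 92 among 510 windows that were higher. Higher windows made up 68.0% of the 750 listed in that comparison. The other 3 windows were not listed, and subtraction of the 2 comparisons with IDH1mut gave 24.7 points at 456 bp, 18.9 at 706 bp and 19.2 at 956 bp. Of all member values, 24.7 points lies just under the listing limit of 25 points, and the smallest listed one, 28.1 points at Mab21l1, lies just above it. From 706 bp to 206 bp the R-2HG difference grew by 17.8 points, against 8.35 points for IDH1mut. Both comparisons share the IDH1wt libraries, so this common direction is in part built in.

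Expressed per window, the R-2HG difference from IDH1wt at Mab21l2 was 52.8% of the IDH1mut difference at 206 bp, 37.0% at 456 bp, 31.0% at 706 bp and 31.5% at 956 bp. The direct comparison of R-2HG with IDH1mut shows the same gap from the other side. In the authors' deposited table R-2HG was lower by -32.8 points at 206 bp, -42.2 at 456 bp, -42.3 at 706 bp and -41.6 at 956 bp. All 4 windows were lower, where 64.5% of the 603 listed windows were, and their sizes ranked 125, 24, 23 and 27 among 389. Of the 4 Mab21l2 windows, the one nearest the start site had the largest difference of either group from IDH1wt and the smallest between IDH1mut and R-2HG. It is also 1 of only 3 windows listed in all 3 tables; the other 2 overlap each other and lie near Aqp12, an aquaporin gene on chromosome 1.

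**Figure D1:**
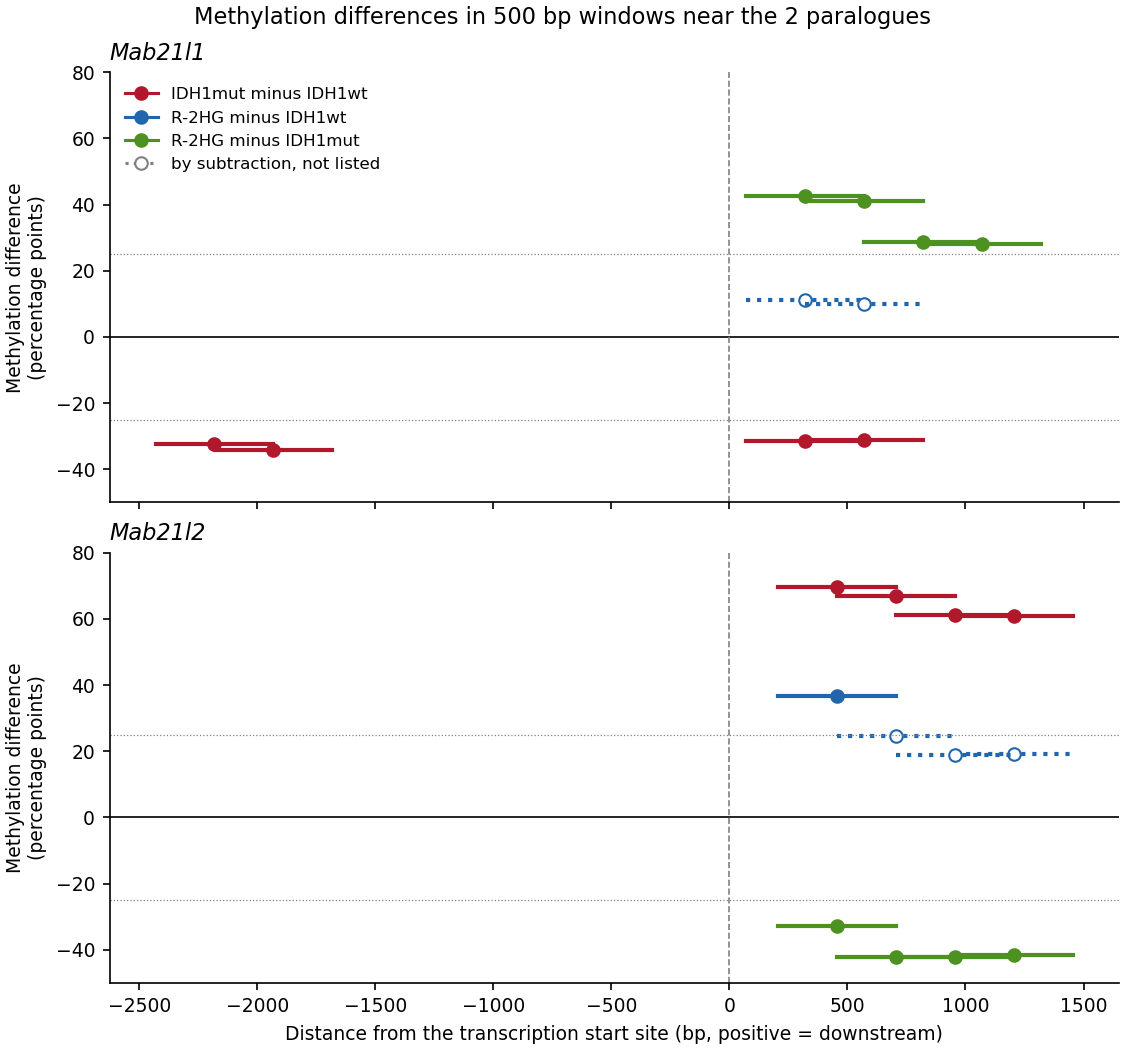
Methylation difference in percentage points (y axis) against distance from the transcription start site in bp (x axis) for the listed windows of Mab21l1 (top) and Mab21l2 (bottom); each bar is a 500 bp window, filled points are listed differences, open points and dotted bars were obtained by subtraction, and dotted lines mark 25 points either way. At Mab21l2 both groups lie above IDH1wt, IDH1mut by 60.8 to 69.6 points, while at Mab21l1 IDH1mut lies below it by 31.1 to 34.2 points.

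Mab21l1 was less methylated in IDH1mut than in IDH1wt in 4 of 4 listed windows, where 30.7% of the 1493 listed windows were lower. In the authors' deposited table the differences were -31.5 points at 71 bp and -31.1 at 321 bp downstream, and -34.2 and -32.4 points in the windows at -1682 and -1932 bp. The 4 values span 3.07 points although the pairs lie on both sides of the start site. By size they ranked 163, 172, 108 and 141 among 458 windows that were lower, so they were of ordinary size for this list, whose median was -28.9 points. The authors' deposited table gives a p-value of 0 for the downstream pair, as for 70.9% of the listed windows, and 6.48e-09 and 1.62e-08 for the windows at -1682 and -1932 bp.

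R-2HG cells were above IDH1mut at Mab21l1 in 4 of 4 listed windows, where 35.5% of the 603 listed windows were higher. The authors' deposited table gives 42.7 points at 71 bp, 41.1 at 321 bp, 28.7 at 571 bp and 28.1 at 821 bp. The difference was thus 14.0 points smaller in the window at 571 bp than in the one at 71 bp, which do not overlap. By size the first pair ranked 11 and 15 among 214 windows that were higher and the second pair 113 and 124.

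For R-2HG against IDH1wt 0 Mab21l1 windows were listed, among 750 windows of which 32.0% were lower. At the 2 windows listed in both comparisons with IDH1mut, subtraction gave R-2HG 11.2 points above IDH1wt at 71 bp and 10.1 points at 321 bp. These are under the listing limit, and without a value per library they cannot be set against replicate spread. The other 4 windows were listed once, which leaves the remaining differences unknown. If each was tested in all 3 comparisons and left out for its size alone, the limit of 25 points bounds them. On that condition R-2HG would lie 3.71 to 25 points above IDH1wt at 571 bp and 3.12 to 25 points above it at 821 bp. At -1682 bp it would lie between -25 and -9.15 points from IDH1wt, and at -1932 bp between -25 and -7.36. R-2HG would then be above IDH1wt in the gene and below it upstream, but whether these windows were covered in every group is not known.

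The order of the groups therefore differed between the paralogues. At all 4 Mab21l2 windows IDH1wt was lowest, R-2HG in between and IDH1mut highest. At the 2 Mab21l1 windows with all 3 differences IDH1mut was lowest, IDH1wt in between and R-2HG highest. The median listed difference of IDH1mut from IDH1wt was 64.1 points at Mab21l2 and -31.9 at Mab21l1, 96.0 points apart. For R-2HG against IDH1mut the medians were -41.9 and 34.9 points, 76.8 points apart in the opposite sense (Mab21l2 minus Mab21l1 was -76.8). IDH1mut stood at one end of the order at both genes, as in all 251 windows listed in both comparisons with IDH1mut. It was above both other groups in 166 of them and below both in 85, so this is not particular to these genes.

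**Figure D2:**
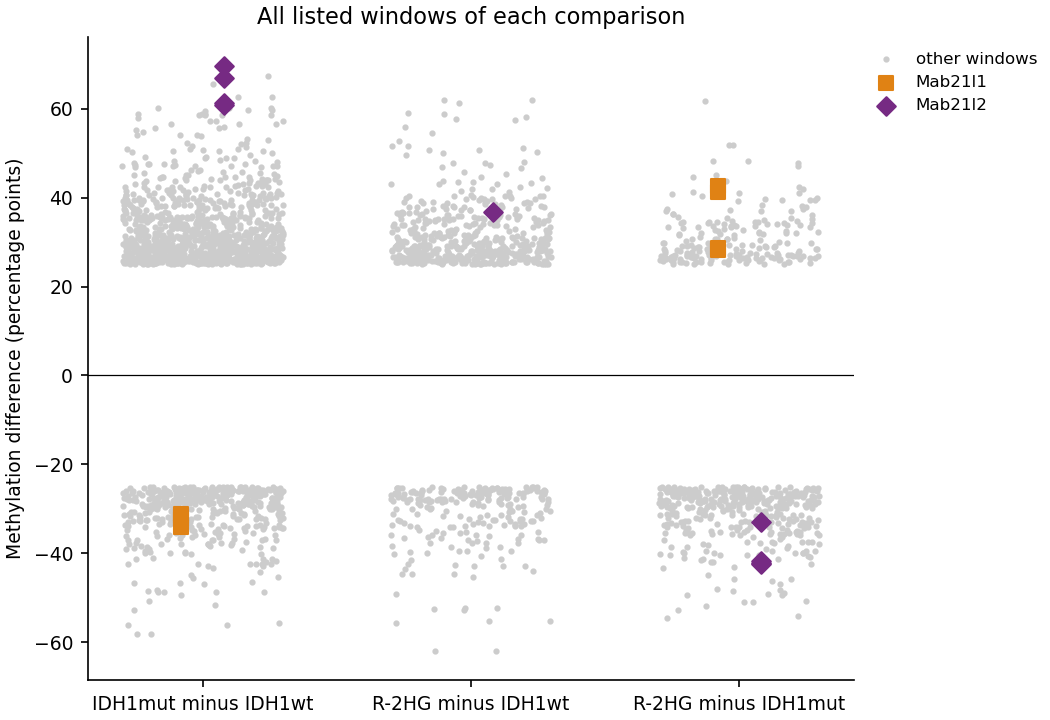
Methylation difference in percentage points (y axis) of every listed window in each of the 3 comparisons (x axis), with windows near Mab21l1 as squares and near Mab21l2 as diamonds; other windows are grey and spread sideways at random. Mab21l2 holds the largest increase of IDH1mut over IDH1wt, 69.6 points, while the Mab21l1 decreases of 31.1 to 34.2 points sit within the bulk of the list.

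Levels per group are not in the tables, but a level lies between 0 and 100%, so large differences confine it. At the Mab21l2 window at 206 bp, IDH1wt can have been at most 30.4% methylated, IDH1mut at least 69.6%, and R-2HG between 36.7% and 67.2%. These 3 ranges do not overlap. At 956 bp, where IDH1mut differed least from IDH1wt, the limits were at most 39.2% for IDH1wt, at least 60.8% for IDH1mut and 19.2% to 58.4% for R-2HG. In all 4 windows the highest level possible for IDH1wt lay under the lowest possible for IDH1mut, and under the other sign reading the 2 groups change places.

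At Mab21l1 the limits were wider. At 71 bp IDH1mut can have been at most 57.3%, IDH1wt between 31.5% and 88.8%, and R-2HG at least 42.7%. Since IDH1wt was above IDH1mut by 31.5 points there, it cannot have been unmethylated, unlike at Mab21l2, where a level of 0 is possible. At 321 bp IDH1wt lay between 31.1% and 89.9%, a slightly wider range. Under the other sign reading IDH1wt at Mab21l1 would lie between 11.2% and 68.5% at 71 bp. At Mab21l2 it would then be at least 60.8% at 956 bp and higher in the other windows. A level of 0 would be impossible at both genes, so this contrast rests on the sign reading. These ranges follow from the differences alone and include no counting error.

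**Figure D3:**
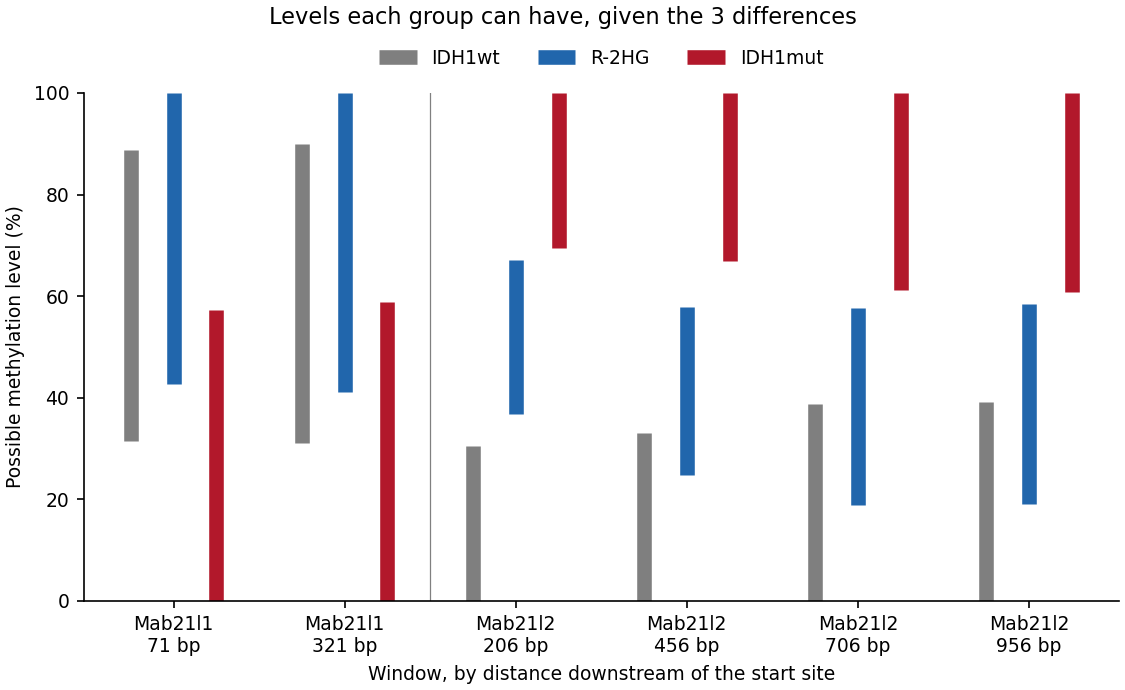
Range of methylation levels in percent (y axis) that each group can have at the 6 windows with all 3 differences (x axis, by gene and distance downstream of the start site); bars run from the lowest to the highest possible level and are not error bars. At the 4 Mab21l2 windows the IDH1wt and IDH1mut bars do not overlap, with IDH1wt at most 39.2% and IDH1mut at least 60.8%, while at both Mab21l1 windows all 3 bars overlap.

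Set among all windows listed in both comparisons with IDH1mut, 251 in number, Mab21l2 contributed 4 of the 166 in which IDH1mut was above both other groups, 66.1% of the 251. Mab21l1 contributed 2 of the 85 in which it was below both, 33.9%. Both comparisons contain the IDH1mut libraries with opposite sign, which favours opposite directions in this set. The relative signs were also set from windows shared between comparisons, so no correlation is given. Genes with at least 4 listed windows, the count of each paralogue itself, made up 3.97% of 881 genes for IDH1mut against IDH1wt. They made up 1.63% of 369 genes for R-2HG against IDH1mut, and both paralogues were among them in these 2 comparisons. For R-2HG against IDH1wt such genes were 3.32% of 452, and neither paralogue was among them, with 0 windows at Mab21l1 and 1 at Mab21l2.

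The genes with the pair of medians nearest to that of Mab21l2 (64.1 and -41.9 points over 4 windows) were Chrnb1, Lrfn1 and Bach1. Each had 2 windows, which overlap, and the 2 of Chrnb1 hold the same values. In the authors' deposited tables Chrnb1, a subunit of the muscle acetylcholine receptor, had medians of 59.6 and -35.2 points, at a distance of 8.05 points. Lrfn1, a synaptic adhesion molecule, had 57.5 and -35.8 points in the authors' deposited tables, at a distance of 8.98. Bach1, a heme-regulated repressor, had 58.0 and -53.7 points in the authors' deposited tables, at a distance of 13.3. Their nearest windows lay 10440, 14996 and 98054 bp downstream of the start site, whereas those of Mab21l2 began at 206 bp.

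Nearest to Mab21l1 (-31.3 and 41.9 points over 2 windows) were Furin, Fam166b and Zfp763. Each had 2 windows, which overlap, and the 2 of Zfp763 hold the same values. Furin, a protease that matures secreted proteins, had medians of -30.7 and 36.3 points in the authors' deposited tables, at a distance of 5.61. Fam166b had -26.5 and 37.0 points and Zfp763, a zinc finger gene, -38.5 and 39.4 points in the authors' deposited tables, at distances of 6.84 and 7.68. For Fam166b subtraction of the medians places R-2HG 10.5 points above IDH1wt, beside 10.6 points for Mab21l1, and for Zfp763 it places it 0.869 points above. The nearest Fam166b window lay at 1257 bp from its start site, beside 71 bp for Mab21l1. Those of Furin and Zfp763 lay at -17185 and -7926 bp.

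**Figure D4:**
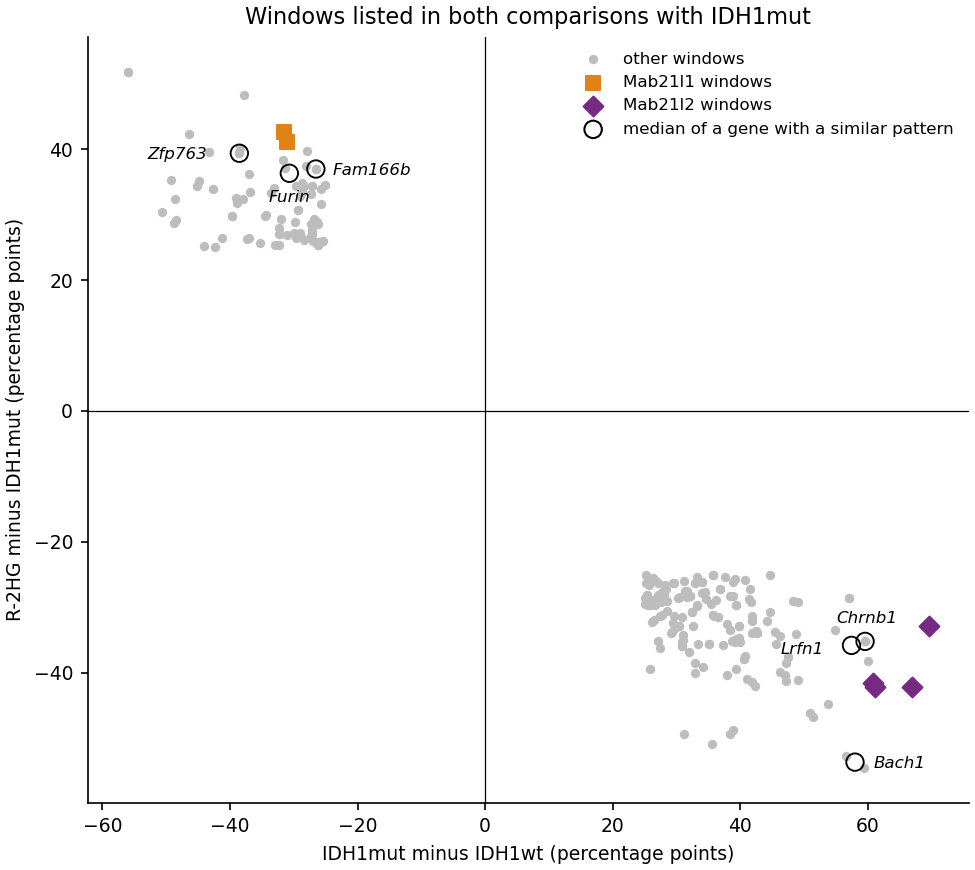
Difference of R-2HG from IDH1mut (y axis) against that of IDH1mut from IDH1wt (x axis), both in percentage points, for the 251 windows listed in both comparisons; squares are Mab21l1 windows, diamonds Mab21l2 windows, and open circles the medians of the 3 genes nearest to each by these 2 values. The IDH1mut libraries enter both axes with opposite sign, and the empty quadrants follow in part from that; the Mab21l2 windows lie at the right edge, from 60.8 to 69.6 points.

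Distances from the 2 loci to other listed windows are given without a background, since the usual spacing of listed windows was not computed. Of the 80 listed windows on chromosome 3, 10 belonged to the 2 genes, which were chosen from listed windows, and neighbours among the 10 overlap. The listed window nearest to those of Mab21l1 was 201501 bp away near Dclk1, the doublecortin-like kinase gene, and on the other side the next was 4534751 bp away near Mbnl1. The 2 Dclk1 windows overlap and were higher in IDH1mut than in IDH1wt by 26.2 points in the authors' deposited table, opposite to Mab21l1, and were not listed in the other comparisons. For Mab21l2 the nearest listed windows were 1230251 bp away near Pear1 and 4473001 bp away near Gucy1b3. Of 4 genes around Mab21l1 (Nbea, Dclk1, Spart and Ccdc169) Dclk1 was listed, and of 4 around Mab21l2 (Lrba, Dclk2, Sh3d19 and Rps3a1) 0 were. A gene without a listed window may have been unchanged, not covered, under the size limit or left out for its q-value.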

How the data were processed

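Reduced representation bisulfite sequencing was done on DNA of 6 libraries, 2 in each of 3 groups. The tools named are Trim Galore, BSMAP and methylKit 0.9.1, and the mouse build is mm9, per the submitters' processing notes; which settings, coverage filter and test they used is not given in the sources used here. For each window of 500 bp the authors' deposited tables give a p-value, a q-value, a signed difference score in percentage points and the distance to the nearest start site. They hold windows with an absolute difference of at least 25 points. The largest q-value listed was 0.00900 for IDH1mut against IDH1wt, 0.00995 for R-2HG against IDH1wt and 0.00741 for R-2HG against IDH1mut. A window may thus be absent for its q-value as well as for its size. No value per library or depth was analysed here.

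Rows were reduced to 1 per chromosome and start. Relative signs were set by requiring the 3 differences to add up: with the table of IDH1wt and R-2HG turned, the residual was 0 at the 3 windows in every table, and all 705 windows in exactly 2 tables left a remaining difference under the listing limit, against 248, 72 and 385 under the other sign orders. The order search was tested on simulated data and recovered 4 of 4 orders. The genes, lists and rules were chosen with earlier results of these data known. Genes most like a paralogue were the 3 nearest by the Euclidean distance of their 2 medians over windows in both IDH1mut comparisons, among 82 genes with at least 2 such windows. No test was made, since the genes were chosen from these values. The alternatives tried were stricter limits (30 points, q of 0.001), non-overlapping windows, promoter windows (-2000 to 500 bp), repeated rows, means and turned signs. Python 3.11.15, pandas 2.3.3 and matplotlib 3.10.9 were used. Start-site sequence came from RefSeq (GRCm38.p6), and window coordinates are those of the tables. 1 gene of the lists is not reported here.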

Additional observations from a re-analysis of the deposited data

How the results depend on the processing

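No replicate could be left out, because no value per library was analysed here. No paired analysis was possible because the tables hold differences between groups and the numbers of the libraries enter none of them. Depth is unknown, so what it limits cannot be stated. Of the 67 values under the alternatives, 53 stayed within 1.5 times the count or within the SD over the gene's own windows. That SD is taken along the gene, over windows that overlap their neighbours, and does not measure spread between replicates. Counting only windows that do not overlap left 2 windows in place of 4 for Mab21l1 and for Mab21l2, in both comparisons with IDH1mut. With an absolute difference of at least 30 points, 2 of the 4 Mab21l1 windows for R-2HG against IDH1mut were left, with a median of 41.9 points. Turning all signs reversed 9 values. For IDH1mut against IDH1wt the medians became 31.9 points at Mab21l1 and -64.1 at Mab21l2, and their gap -96.0. For R-2HG against IDH1mut they became -34.9 and 41.9 points, and their gap 76.8. For R-2HG against IDH1wt the Mab21l2 window listed became -36.7 points, and the medians by subtraction -10.6 points at Mab21l1 and -19.2 at Mab21l2. Turning all signs only mirrors the order of the groups, so IDH1mut stays at one end at both genes by construction. A q of at most 0.001, every row and the mean changed no direction, and they could not have done so. Every member window passes that q, no member row was repeated, and the windows of a gene share a sign within each comparison. The limit of 30 points, non-overlapping windows and promoter windows only drop windows, so they could not change a direction either. Values under all these settings enter the 67, so the 53 that stayed are no measure of stability.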

Other observations

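Of 10 further genes of the Mab21 family and its relatives, among them Mab21l3, Mab21l4, Cgas, the sensor of cytosolic DNA, Itprip and the mitochondrial dynamics genes Mief1 and Mief2, 0 had a listed window in any comparison. A further 21 genes were selected from the eye field, the lens and the BMP pathway, in which Mab21l1 and Mab21l2 act. Under their own names 2 of them were listed, both for IDH1mut against IDH1wt and for no other comparison. That comparison listed 881 genes in all, but how many genes were tested is unknown, so these counts have no background share to be read against. Bmp4, a signalling ligand of lens and body-wall development, was listed in the authors' deposited table with 30.1 and 30.2 points more in IDH1mut, in 2 overlapping windows that cover its start site. Smad1, a transducer of BMP signals, was listed in the authors' deposited table with -26.1 points, at 43118 bp from its start site. The selection leaves out other BMP pathway genes that were listed. Smad5 (38.4 points) and Smad9 (-27.3) were listed for IDH1mut against IDH1wt, and for R-2HG against IDH1mut with -28.2 and 26.6 points. For R-2HG against IDH1wt, Nog was listed with 32.0 points and Bmp8b with -25.4. Windows assigned to Six3os1 (31.8 points) and Otx2os1 (-34.4) were listed for IDH1mut against IDH1wt. They were not counted for Six3 and Otx2, which are on the list.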
